A study of Homo sapiens with 12 samples.

Results

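The 76 replication-dependent histone genes of the human genome were described here by histone class in RNA sequencing libraries of MRC5 cells, which are human embryonic lung fibroblasts. This family and the gene lists used below were chosen with earlier results of these data known. Within the family, 14 entries whose names mark them as pseudogenes were left out. Taken by name alone were all other genes of the HIST1, HIST2, HIST3 and HIST4 clusters named for histone H1, H2A, H2B, H3 or H4. They are 76 of the 57500 genes in the count table, namely 6 H1, 17 H2A, 23 H2B, 15 H3 and 15 H4 genes, of which 55 lie in HIST1, 16 in HIST2, 4 in HIST3 and 1 in HIST4. The older HIST names of the table are kept below. In the annotation used here (GENCODE v44, build GRCh38), 66 of the 76 are protein-coding and 4 are pseudogenes, and 6 have no entry under their identifier.

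The study asked what mitochondrial export of metabolites does in senescent fibroblasts, and measured 12 libraries in 4 groups of 3. Prol were proliferating cells. Sen(IR) were cells made senescent by 20 Gy of X-rays and collected 10 to 12 days later. Sen(IR)+UK5099 were irradiated cells also given UK5099, an inhibitor of the mitochondrial pyruvate carrier, at 100 μM in the methods. Sen(IR)+CTPI2 were irradiated cells given CTPI2, an inhibitor of the mitochondrial citrate carrier SLC25A1, for which the methods name 15 and 30 μM without saying which was sequenced. Both inhibitors were added from day 1 after irradiation, so every group but Prol shares the irradiation, and all 4 groups are the same cell line. The study calls its RNA-seq replicates independent, and the labels, which number the libraries 1 to 3, do not say whether these were separate cultures, so the p-values below measure the spread between these libraries.

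Replication-dependent histone genes supply the core histones H2A, H2B, H3 and H4, which wrap DNA into nucleosomes, and the linker histone H1, which binds the DNA between them. They are clustered, mostly lack introns, and are transcribed mainly in S phase, when new DNA must be packaged. Their messages usually end just after a conserved stem-loop, bound by the protein SLBP, in place of a poly(A) tail, although some of these genes can also give longer, polyadenylated messages in cells that do not divide.

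The stem-loop is shown first because the annotated 3′ ends of these genes divide at it. A window of 150 bases after the stop codon was searched for a 16-base hairpin with the classic arms, and 66 of the 66 protein-coding members held one, 22 to 62 bases after the stop codon, against 0.724% of 19605 such windows of all protein-coding genes. There were 10 distinct stem-loops. The commonest was found in 36 genes of H1, H2A, H2B and H3, and the H4 genes carried arms of their own. The 4 commonest follow, read 5′ to 3′ from GRCh38, with the loop in capitals.

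36 genes, none of them H4: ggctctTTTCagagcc
10 genes, H1, H2A, H2B and H3: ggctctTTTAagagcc
10 genes, all H4: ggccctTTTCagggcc
4 genes, all H4: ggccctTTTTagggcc

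With 5 flanking bases on each side, and with the stem-loop in capitals, the sites of the 6 members that the results below turn on were these.

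HIST1H1C (chr6:26055744-26055759, minus strand): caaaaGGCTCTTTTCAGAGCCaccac
HIST1H2AC (chr6:26124669-26124684, plus strand): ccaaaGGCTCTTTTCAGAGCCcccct
HIST1H2BK (chr6:27146366-27146381, minus strand): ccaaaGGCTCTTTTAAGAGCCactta
HIST2H2BE (chr1:149886188-149886203, minus strand): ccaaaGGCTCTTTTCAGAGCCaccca
HIST1H4H (chr6:26285131-26285146, minus strand): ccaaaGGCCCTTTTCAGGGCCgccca
HIST1H4I (chr6:27139654-27139669, plus strand): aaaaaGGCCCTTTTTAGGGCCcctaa

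The coordinates are those of the stem-loop itself, which lies in the 3′ untranslated region of each gene. In 49 of the 66 genes, HIST1H1C, HIST1H2BK and HIST1H4I among them, every annotated transcript ended within 18 bases of the stem-loop, and 1 of these 49 had a poly(A) signal, AATAAA or ATTAAA on the sense strand, in the 40 bases before an annotated end. In the other 17, HIST1H2AC, HIST2H2BE and HIST1H4H among them, an annotated transcript ran at least 430 bases past it, and 16 of these 17 had such a signal.

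Libraries held 20597736 to 28245693 counts in genes. Levels below (CPM) are counts scaled to a common library size with edgeR's TMM factors, which ran from 0.953 to 1.05, and they compare one gene between libraries. All 8 listed fibroblast markers passed the filter, and their summed level lay between 20724 and 24516 CPM in the Prol libraries and between 19845 and 20411 CPM in the Sen(IR) libraries. In Sen(IR) against Prol, VIM was called lower and COL1A2 and THY1 higher. CTPI2 libraries lay between 17421 and 19191 CPM, and UK5099 libraries between 10544 and 10987 CPM, where 4 of the 8 were called lower against Sen(IR). These were COL1A1 (log2 fold change -1.56), COL1A2 (-1.06), COL3A1 (-1.75) and THY1 (-0.76), whereas PDGFRB, VIM, DCN and LUM were not called. The part of the lower marker sum in the values of the histone genes with UK5099 was not tested. Of 5 epithelial, 4 endothelial and 5 immune markers 4 passed the filter. KDR, with 6 to 132 counts, was called lower in Sen(IR), and CD68, with 17 to 47, was called higher. EPCAM, with 10 to 31 counts, and VWF, with 4 to 27, were not called there. The markers that did not pass had at most 8 counts in any library, as PTPRC did, with CDH5 at no more than 5 and KRT5 at no more than 1. In these bulk libraries, fewer expressing cells and less RNA per cell cannot be told apart. How the libraries were selected for mRNA, and whether they kept strand, is not given in the sources used here. Among 12 listed RNA genes that carry no poly(A) tail, RN7SK, RPPH1, RN7SL1, RNY3 and SCARNA2 had 0 counts in all 12 libraries. A count of 0 allows up to 3 counts in each library. The highest counts in any library were 1 for RMRP, 2 for TERC, 3 for RNY1 and 6 for SCARNA10. SCARNA12 had at most 8 and SNORD3A at most 10, whereas RN7SL2 had 22 to 58. Whether messages without a tail were counted in full was not tested.

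Few of the histone genes carried most of the counts. No count was seen for 7 of the 76 members, 34 had counts but too few for a test, with no more than 20 in any library, and 35 passed the filter on low counts, which asks for about 0.423 CPM in 3 libraries. The 41 untested members held 0.483% of all member counts, whereas the 6 with most counts held 78.5% and the 8 with most held 88.0%. Tested were 2 of the H1, 6 of the H2A, 17 of the H2B, 4 of the H3 and 6 of the H4 genes. To set different genes side by side, levels were divided by the length of all annotated exons of a gene. The order then depends on the annotation, with 1668 bases for HIST1H2AC and 495 for HIST1H2BK. Which of these bases were read was not tested. On this measure the highest mean in Sen(IR) was that of HIST1H2BK with 174 CPM per kb, followed by HIST1H4I with 119, HIST1H2AC with 107 and HIST1H1C with 101. In Prol the same measure was 31.5 for HIST1H2BK, 21.4 for HIST1H4I, 15.7 for HIST1H1C and 10.9 for HIST1H2AC. The order of HIST1H2AC and HIST1H1C thus differed between the groups, and exon lengths were those of GENCODE v44, which may not be the release used for counting.

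The first comparison asked how the histone genes differed between senescent and proliferating cells. Summed over all 76 members, the libraries gave 80.9, 93.9 and 93.8 CPM in Prol and 665, 659 and 659 CPM in Sen(IR), a ratio of means of 7.39. Every class took part. The sums compare the messages that were counted, and whether messages without a poly(A) tail were counted in full was not tested. The H1 sum was 11.96 ± 0.34 CPM (SD, n = 3) in Prol and 74.5 ± 2.3 in Sen(IR), 6.23-fold higher. The H2A sum went from 26.2 ± 2.6 to 193 ± 3.3 CPM, a ratio of 7.38.

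The H2B sum was 34.9 ± 2.4 CPM in Prol and 261 ± 6.5 in Sen(IR), a ratio of 7.47. The H3 sum was the lowest of the 5 in counts, at 3.21 ± 0.47 and 15.1 ± 0.78 CPM, a ratio of 4.69. The H4 sum was 13.3 ± 2.0 and 118 ± 0.99 CPM, a ratio of 8.88. In each class the 3 Sen(IR) libraries lay above the 3 Prol libraries, with gaps far wider than the spread within a group. The sums were not tested, since single genes dominate them. By cluster the ratios were 7.29 for HIST1, 9.37 for HIST2, 2.02 for HIST3 and 8.18 for the single HIST4 gene. Of all member counts, H2B took 38.99% in Prol and 39.4% in Sen(IR) and H2A 29.2% in both, and in these classes the groups overlapped. The mean share was 14.8% and 17.8% for H4, 13.4% and 11.3% for H1, and 3.58% and 2.28% for H3, without overlap between the groups.

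**Figure D1:**
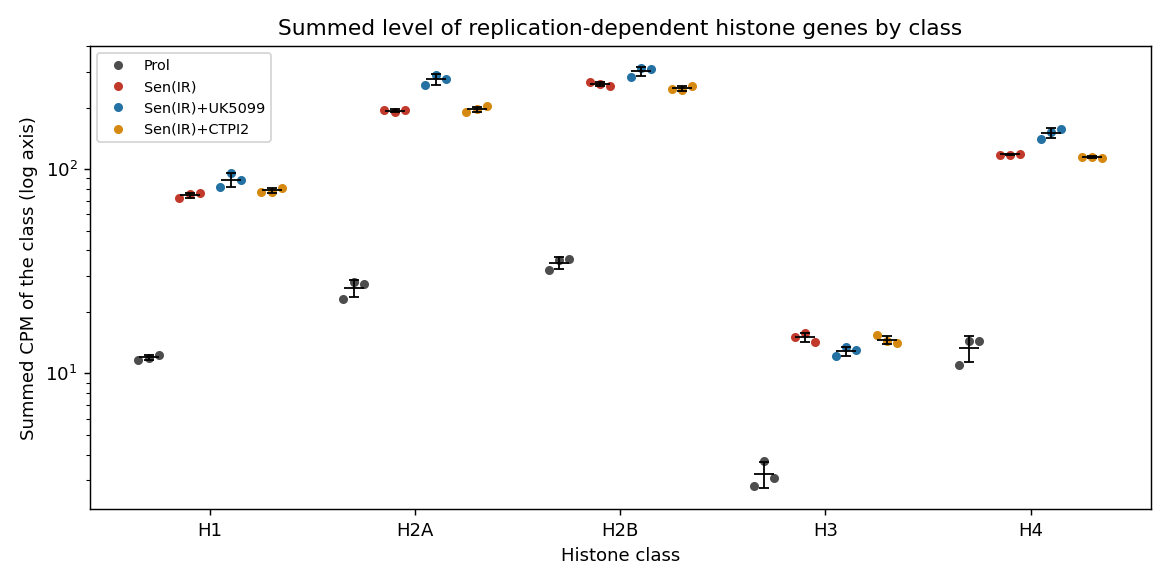
Summed CPM of each histone class (log axis) in the 12 libraries, with points for libraries and bars for the mean ± SD of the 3 libraries of a group. In each class the 3 Sen(IR) libraries lie above the 3 Prol libraries, from a ratio of means of 4.69 in H3 to 8.88 in H4.

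Gene by gene, edgeR's quasi-likelihood test across 16251 genes was used, and calls required both a p-value of less than 0.05 after Benjamini-Hochberg adjustment and a log2 fold change larger than 0.5 in size. Of the 35 tested members, 30 were called higher and 1 lower in Sen(IR), against 24.8% of all genes called higher and 22.4% called lower. Their median log2 fold change was 2.52, beside 0.01 over all genes tested. Since a gene that is low in Prol enters the test only by being higher elsewhere, the 17 members that reached the filter level in every Prol library are the fairer count, and of these 16 were called higher and 1 lower. By class, 2 of 2 H1, 5 of 6 H2A, 15 of 17 H2B, 2 of 4 H3 and 6 of 6 H4 genes tested were called higher. These class counts and the median cover all 35 tested members, of which 18 were under the filter level in a Prol library. Of those 18, 14 were called higher. The shares of all genes given above are not limited to genes that reached this level in every Prol library. The 4 members not called either way were HIST1H3B, HIST1H3G, HIST2H2BA and HIST2H2BB, and each stayed under 1 CPM in all 12 libraries.

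HIST1H1C, which encodes the linker histone H1.2, was measured at 11.2, 11.4 and 11.9 CPM in Prol and at 71.3, 73.7 and 75.7 CPM in Sen(IR). It rose by a log2 fold change of 2.68 ± 0.07 (SE, adjusted p = 6.14e-19). It carried nearly all H1 counts, and the groups did not overlap. The other tested H1 gene, HIST1H1E, had 2, 0 and 5 counts in Prol and 5, 14 and 9 in Sen(IR). Its log2 fold change was 2.16 ± 0.74 (adjusted p = 0.0137), but without Prol library 2 the adjusted p was 0.0535 and without Sen(IR) library 2 it was 0.0807. The highest Prol and lowest Sen(IR) count were equal.

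HIST1H2AC encodes a core H2A and had more counts than any other member. It gave 15.1, 20.2 and 19.1 CPM in Prol and 178, 173 and 182 CPM in Sen(IR), a log2 fold change of 3.29 ± 0.08 (adjusted p = 1.09e-19). All Sen(IR) libraries were far above all Prol libraries. HIST1H2AG moved less, from 4.01, 4.12 and 3.72 CPM to 7.52, 7.73 and 5.69 CPM, a log2 fold change of 0.83 ± 0.15 (adjusted p = 3.41e-05). HIST3H2A stood at 2.09, 1.29 and 1.93 CPM in Prol and at 3.56, 2.84 and 3.14 CPM in Sen(IR), and rose by 0.84 ± 0.21 on the log2 scale (adjusted p = 0.00101). Neither of these pairs of groups overlapped. HIST2H2AC was the 1 member called lower, with 12, 14 and 32 counts in Prol and 8, 6 and 3 in Sen(IR) (log2 fold change -1.53 ± 0.56, adjusted p = 0.0188). This call rested on few counts: its adjusted p was 0.143 without Prol library 3 and 0.0780 without Sen(IR) library 3.

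Among the H2B genes the largest change was that of HIST1H2BC, at 1.79, 2.32 and 1.56 CPM in Prol and 39.3, 39.9 and 42.1 CPM in Sen(IR). Its log2 fold change was 4.42 ± 0.12 (adjusted p = 6.94e-19), a member with annotated exons that overlap those of HFE and an unnamed gene over 30.9% of their length, so that reads there could belong to either. HIST1H2BG, whose annotated exons overlap no other gene, went from 0.896, 1.16 and 0.892 to 17.7, 16.3 and 14.8 CPM (4.05 ± 0.17, adjusted p = 1.40e-15). HIST1H2BC and HIST1H2BG were each close to 1 or 2 CPM in every Prol library and well above 10 in every Sen(IR) library.

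HIST1H2BK, an H2B gene whose annotation ends at the stem-loop, was measured at 14.9, 14.4 and 17.4 CPM in Prol and 88.8, 85.8 and 84.3 CPM in Sen(IR) (2.47 ± 0.07, adjusted p = 1.14e-18). HIST2H2BE gave 5.89, 6.18 and 5.91 CPM in Prol and 75.6, 73.2 and 73.8 CPM in Sen(IR) (3.63 ± 0.07, adjusted p = 8.39e-21). In both genes the lowest Sen(IR) library was far above the highest Prol library. HIST2H2BF rose by 3.84 ± 0.32, HIST3H2BB by 3.09 ± 0.74, HIST1H2BD by 2.54 ± 0.13, HIST1H2BE by 2.52 ± 0.40, HIST1H2BN by 2.40 ± 0.17, HIST1H2BJ by 1.65 ± 0.19 and HIST1H2BH by 0.93 ± 0.22, all log2 fold changes with SE. Calls of 3 low members were less firm. HIST1H2BO (1.29 ± 0.56, adjusted p = 0.0464) lost its call under 7 of 12 alternatives, with adjusted p of up to 0.205, HIST2H2BC (1.44 ± 0.52) lost it without Prol library 1 or Sen(IR) library 1, with adjusted p of 0.0810 and 0.309, and the pseudogene HIST2H2BD (2.14 ± 0.69) lost it without Sen(IR) library 1, with 0.0564. HIST2H2BD shares 93.6% of its 150-base words with H2BC20P, and HIST2H2BA shares 98.3% with a second entry that bears its own current name, H2BP1.

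The H3 genes were the class with the lowest sum in counts, which does not rank the classes by abundance. HIST2H3C and HIST2H3A share 98.9% and 100% of their words with other genes. Only unique reads were counted, so the counts of these copies are uncertain and the H3 sum may be too low. Sums of other classes may be too low as well. In H2A, HIST1H2AI and HIST1H2AJ share 52.9% and 56% of their words, and in H4, HIST1H4J and HIST1H4K share 88.8% and 89.5%. HIST2H2AA3 and HIST2H2AA4 had no entry in the annotation, so their sharing was not measured. HIST1H3H was at 0.469, 1.55 and 1.12 CPM in Prol and 7.34, 6.87 and 6.62 CPM in Sen(IR), a log2 fold change of 2.73 ± 0.22 (adjusted p = 2.07e-10). HIST1H3E was at 0.981, 1.42 and 0.744 CPM in Prol and 6.18, 7.82 and 6.38 CPM in Sen(IR), 2.71 ± 0.20 (adjusted p = 5.80e-11). Both rose without overlap between the groups. HIST1H3G, the remaining H3 gene named by level, had 15, 5 and 12 counts in Prol and 10, 5 and 4 in Sen(IR), and the groups overlapped.

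Among the H4 genes, HIST1H4H went from 2.86, 4.04 and 3.01 CPM in Prol to 62.1, 62.9 and 62.7 CPM in Sen(IR), a log2 fold change of 4.25 ± 0.10 (adjusted p = 7.52e-20). Its Sen(IR) libraries lay within 1 CPM of each other. HIST1H4I went from 7.04, 8.80 and 9.67 CPM to 46.7, 47.3 and 47.7 CPM (2.47 ± 0.09, adjusted p = 9.72e-17). HIST1H4E went from 0.554, 0.172 and 0.520 CPM to 3.96, 4.03 and 4.61 CPM (3.30 ± 0.25, adjusted p = 9.29e-11). HIST4H4 (2.97 ± 0.39) and HIST2H4A (2.62 ± 0.48) rose as well, both from under 0.4 CPM in each Prol library. HIST2H4A has a copy, HIST2H4B, with which it shares 100% of its words, and HIST2H4B had at most 2 counts, so the counts of this pair are uncertain.

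Below the filter, several members had counts in Prol and next to none after irradiation, and they are named here after their values were seen. HIST1H2AJ had 7, 11 and 10 counts in the Prol libraries and 0 in all 9 irradiated libraries, which makes it at least 2.70-fold lower in Sen(IR) when 3 counts per library are taken as the floor. HIST1H4A had 2, 10 and 3 counts in Prol and 0 in the Sen(IR) libraries. With no filter on low counts, both were called lower (edgeR adjusted p = 0.000372 and 0.0128), and HIST2H3D and HIST1H1T were called higher. In these low counts the direction was therefore not the same for every histone gene.

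**Figure D2:**
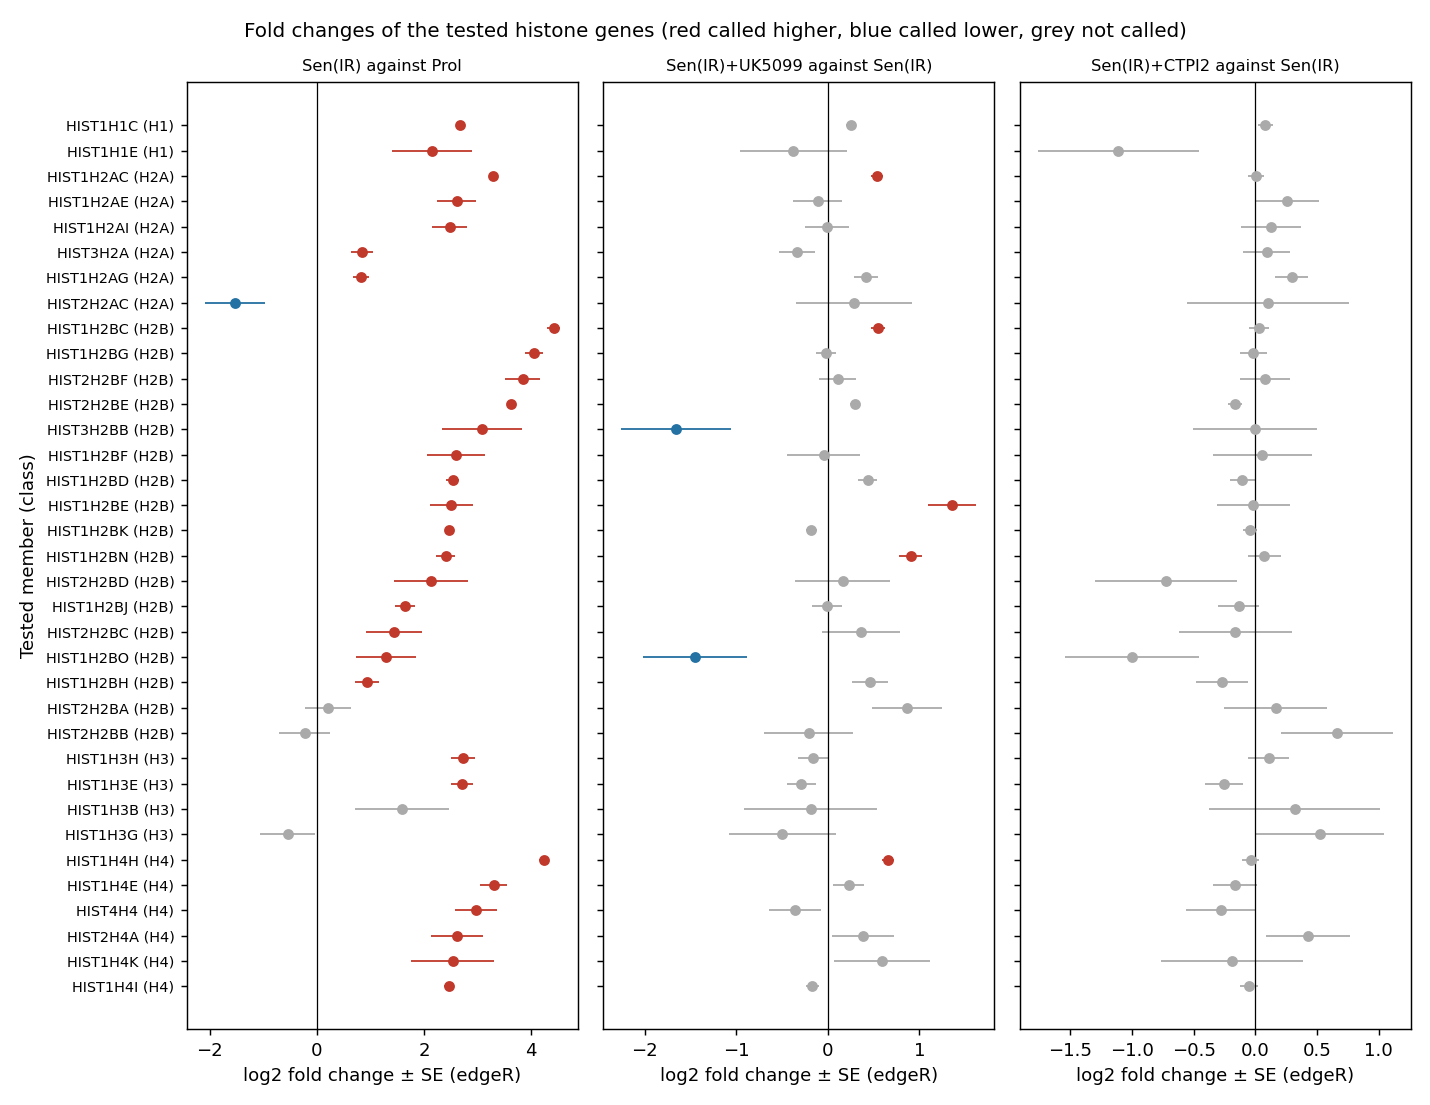
Log2 fold changes ± SE (edgeR) of the 35 tested members, grouped by class, in 3 comparisons whose axes differ in range. In Sen(IR) against Prol 30 members are called higher (red) and 1 lower (blue), with UK5099 5 are called higher and 2 lower, and with CTPI2 none is called (grey).

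The annotated 3′ end divided the members by level. Of the 17 genes with an annotation that runs past the stem-loop, 14 had a mean of 1 CPM or more in Sen(IR), compared with 9 of the 49 that end at it. In Prol the counts were 10 of 17 and 5 of 49. The median of the gene means in Sen(IR) was 5.94 CPM in the first set and 0.0929 CPM in the second. These are levels of genes that differ in length, and longer annotations can collect more counts, so the comparison is a description.

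Within each set the change can be read on 1 annotation. The sum over the 17 genes was 40.6 ± 5.3 CPM in Prol and 412 ± 1.8 CPM in Sen(IR), a ratio of 10.1. The sum over the 49 genes was 47.2 ± 3.1 CPM in Prol and 247 ± 2.7 CPM in Sen(IR), a ratio of 5.23. HIST1H1C, HIST1H2BK and HIST1H4I lead the second set, and each stood above 40 CPM in every Sen(IR) library. Counts per gene do not show where in a gene its reads lay, so whether longer messages gave the reads was not tested.

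**Figure D3:**
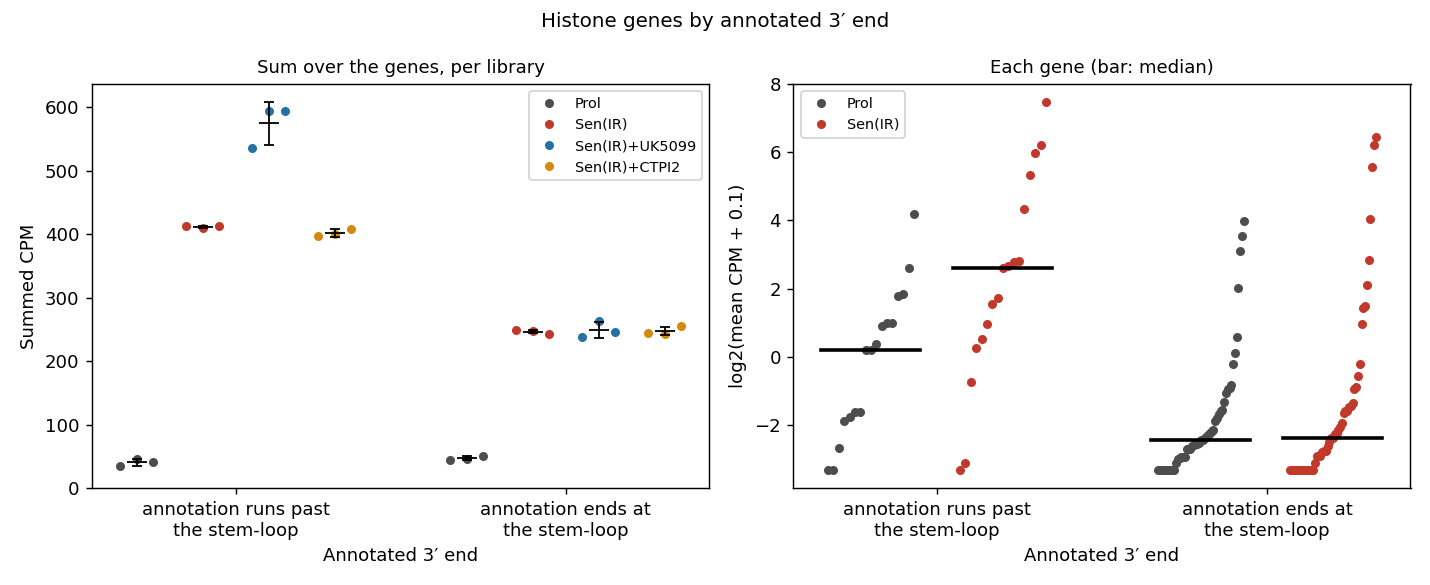
Histone genes by annotated 3′ end. On the left, summed CPM per library with the mean ± SD of 3 libraries, where the 17 genes annotated past the stem-loop go from 412 CPM in Sen(IR) to 575 with UK5099 and the 49 that end there stay near 247. On the right, each gene's log2(mean CPM + 0.1) in Prol and Sen(IR) with the median as a bar.

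The genes of H2A and H2B often lie head to head, and share the region between their starts. There were 12 such pairs of members, each of 1 H2A and 1 H2B gene, with at most 500 bases between their starts in both RefSeq and GENCODE v44, and their partners that fall outside the naming rule are named here after their values were seen. The levels of partners could differ widely. HIST2H2BE and HIST2H2AC, 236 bases apart, had 1700, 1544 and 1504 against 8, 6 and 3 counts in Sen(IR), and while the first rose in Sen(IR) the second fell. HIST1H2BK and HIST1H2AH, 248 bases apart, had 1997, 1811 and 1719 against 0, 2 and 0 counts, and HIST1H2BN and HIST1H2AK, 194 bases apart, had 147, 136 and 115 against 0, 0 and 0. In other pairs both partners had counts. HIST1H2BC and HIST1H2AC, 246 bases apart, had 883, 841 and 858 against 3995, 3657 and 3717 counts in Sen(IR), and HIST1H2BJ and HIST1H2AG, 248 bases apart, had 124, 127 and 128 against 169, 163 and 116. Both partners rose in these 2 pairs.

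**Figure D4:**
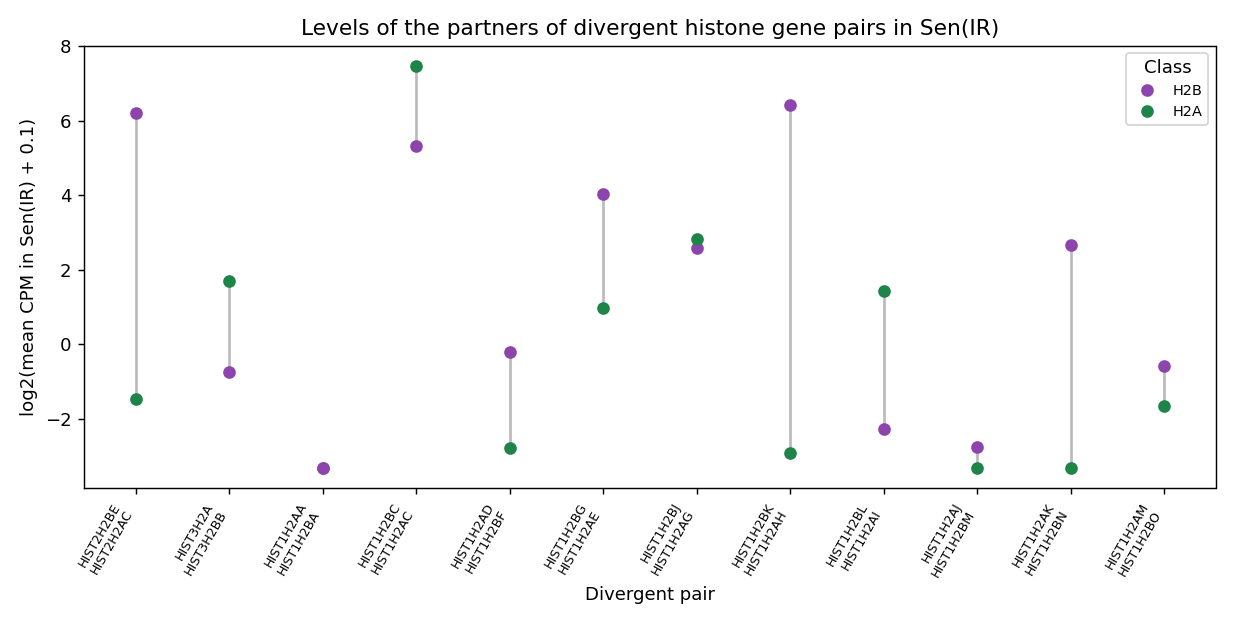
The 12 pairs of histone genes that start head to head, each pair joined by a line, with log2(mean CPM in Sen(IR) + 0.1) on the vertical axis and colour for the class. Partners sit together for HIST1H2BJ and HIST1H2AG and far apart for HIST2H2BE and HIST2H2AC and for HIST1H2BK and HIST1H2AH, and both genes of HIST1H2AA and HIST1H2BA are at 0 and share a point.

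The promoters of 4 leading members are shown because motifs in these regions differed in frequency between the classes. The sequences are RefSeq's for GRCh38.p14, 250 bases before to 50 after the start, on the strand of the gene. Capitals mark the octamer ATTTGCAT or its reverse complement ATGCAAAT in the H2A and H2B genes, a motif bound by POU2F1, and AAACACA or its reverse complement TGTGTTT in the H1 gene.

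HIST1H2AC, chr6:26123922-26124221, plus strand: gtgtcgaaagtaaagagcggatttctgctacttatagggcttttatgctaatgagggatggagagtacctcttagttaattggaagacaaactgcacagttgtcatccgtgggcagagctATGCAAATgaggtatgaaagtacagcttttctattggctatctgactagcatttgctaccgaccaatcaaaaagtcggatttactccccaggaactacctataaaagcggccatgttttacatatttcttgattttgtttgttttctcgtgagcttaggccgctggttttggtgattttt
HIST1H2BK, chr6:27146809-27147108, minus strand: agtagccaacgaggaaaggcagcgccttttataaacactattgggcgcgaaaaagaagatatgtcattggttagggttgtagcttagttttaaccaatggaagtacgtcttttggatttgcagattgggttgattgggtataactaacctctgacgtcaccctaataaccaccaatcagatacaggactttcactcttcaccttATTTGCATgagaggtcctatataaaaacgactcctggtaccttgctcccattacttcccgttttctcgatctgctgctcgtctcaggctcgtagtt
HIST2H2BE, chr1:149886633-149886932, minus strand: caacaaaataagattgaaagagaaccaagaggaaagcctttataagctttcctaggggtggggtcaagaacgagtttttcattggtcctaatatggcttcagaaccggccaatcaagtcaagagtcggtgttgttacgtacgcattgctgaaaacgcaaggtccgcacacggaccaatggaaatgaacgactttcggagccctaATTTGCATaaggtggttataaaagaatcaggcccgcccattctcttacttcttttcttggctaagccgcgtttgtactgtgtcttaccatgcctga
HIST1H1C, chr6:26056421-26056720, minus strand: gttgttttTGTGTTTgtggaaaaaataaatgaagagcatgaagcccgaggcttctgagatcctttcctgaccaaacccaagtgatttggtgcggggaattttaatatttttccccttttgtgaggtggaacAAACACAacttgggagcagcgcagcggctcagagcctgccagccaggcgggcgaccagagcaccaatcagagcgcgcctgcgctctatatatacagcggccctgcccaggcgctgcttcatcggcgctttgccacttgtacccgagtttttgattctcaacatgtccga

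RefSeq held a promoter for 65 of the 76 members. On either strand, ATTTGCAT was in 11 of 16 H2A and 14 of 18 H2B promoters, in 1 of 12 H3 promoters, and in none of the 6 H1 and 13 H4 promoters, against 1.80% of the 27305 promoters of the table. The 1 H3 match is no separate region, since the first promoter RefSeq lists for HIST1H3D is that of the H2A gene HIST1H2AD and is counted under both. Nor are the H2A and H2B matches all separate, because the windows of head-to-head partners overlap. An octamer between 2 partners can be counted under both classes, as for HIST2H2BE and HIST2H2AC. AAACACA, on either strand, was in 6 of 6 H1, 1 of 16 H2A, 0 of 18 H2B, 2 of 12 H3 and 0 of 13 H4 promoters, against 5.76% of all. The 2 H3 matches were in HIST2H3C and HIST2H3A, whose promoter sequences are nearly the same. CCAAT, also on either strand, was in 6 of 6 H1, 16 of 16 H2A, 18 of 18 H2B and 12 of 12 H3 promoters and in 3 of 13 H4 promoters, against 35.7% of all. TATAAA on the sense strand was in 38 of 65 against 7.71%. None of these motifs contains another. A match is a match of letters, and no binding was measured here. HIST2H2BE, which rose, and its partner HIST2H2AC, which was called lower, lie on either side of the 1 octamer printed for them.

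The genes that make, process and deposit histones did not move with the histone genes in Sen(IR). Of all genes tested, 24.8% were called higher and 22.4% lower in this comparison. Of 25 genes of histone transcription and 3′ end processing, 0 were called higher and 16 lower (median log2 fold change -0.69). The largest changes were those of CDK2 (-2.68), cyclin E2 gene CCNE2 (-2.34) and LSM2 (-1.51). Named after their values were seen, SLBP, which binds the stem-loop, fell by 0.76 on the log2 scale and NPAT, the histone-specific coactivator of transcription, fell by 0.70, while POU2F1, which binds the octamer, was not called and stood at 7.94 CPM in Prol and 7.96 CPM in Sen(IR). Of 18 histone chaperones and deposition genes 14 were called lower and 0 higher (median -0.82), led by CHAF1B (-3.08) and ASF1B (-3.08), and CHAF1A followed (-2.38). All 10 listed S-phase genes were called lower (median -2.58), led by CDC45 (-3.80), CDC6 (-3.38) and RRM2 (-3.38).

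The replication-independent histone variants also went another way. Of 11 tested, 8 were called lower and 1 higher (median -0.89), against 22.4% and 24.8% of all genes. CENPA, the centromeric H3 (-4.70), H2AFX (-2.33) and H2AFZ (-2.32) fell most, and H2AFJ was the 1 called higher (0.76).

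The second comparison asked whether inhibiting the pyruvate carrier altered the histone genes of senescent cells. With UK5099 5 members were called higher, against 8.76% of all genes, and 2 lower, against 12.1%. Of the 35 tested members 18 had positive and 17 negative log2 fold changes, with a median of 0.11 beside 0.01 over all genes. At any size of change, 12 had an adjusted p under 0.05, and the share of all genes at that limit was not counted. The sum over all members averaged 661 ± 3.5 CPM (SD, n = 3) in Sen(IR) and 827 ± 44 CPM under UK5099, a ratio of 1.25.

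The sums of the classes did not all move one way. The H2A sum stood at 194, 189 and 196 CPM in Sen(IR) and at 258, 290 and 276 CPM under UK5099, a ratio of 1.42. The H4 ratio was 1.27, the H1 ratio 1.19 and the H2B ratio 1.16, and in these 3 classes the groups did not overlap either. The H3 sum stood at 15.1, 15.8 and 14.3 CPM in Sen(IR) and at 12.1, 13.4 and 12.9 CPM under UK5099, a ratio of 0.85, so that every treated library was lower.

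HIST1H4H was at 62.1, 62.9 and 62.7 CPM in Sen(IR) and at 90.5, 97.9 and 108 CPM under UK5099, a log2 fold change of 0.66 ± 0.07 (adjusted p = 5.73e-08). HIST1H2AC was at 178, 173 and 182 CPM in Sen(IR) and at 242, 271 and 260 CPM under UK5099 (0.54 ± 0.07, adjusted p = 6.30e-07). Without UK5099 library 2 it was 0.4968, just under the size needed for a call. In both genes every treated library was above every untreated one.

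HIST1H2BC, which shares its start region with HIST1H2AC, was at 39.3, 39.9 and 42.1 CPM in Sen(IR) and at 52.0, 62.7 and 62.8 CPM under UK5099 (0.55 ± 0.08, adjusted p = 3.84e-06). HIST1H2BN was at 6.54, 6.45 and 5.64 CPM in Sen(IR) and at 11.6, 10.6 and 12.7 CPM under UK5099 (0.91 ± 0.12, adjusted p = 3.15e-06). HIST1H2BE was at 1.42, 1.80 and 0.785 CPM in Sen(IR) and at 3.48, 3.04 and 3.84 CPM under UK5099 (1.36 ± 0.26, adjusted p = 0.000192). All 3 rose without overlap, and all encode H2B. HIST1H2BE overlaps other genes' exons over 28.2% of its length and HIST1H4H over 13.3%.

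The 2 members called lower had few counts. HIST3H2BB had 11, 8 and 13 counts in Sen(IR) and 0, 4 and 8 with UK5099 (log2 fold change -1.65 ± 0.60, adjusted p = 0.0286), and the lowest count of one group equalled the highest of the other. HIST1H2BO had 15, 17 and 5 counts in Sen(IR) and 5, 6 and 5 with UK5099 (-1.45 ± 0.57, adjusted p = 0.0414). The HIST3H2BB call was lost without Sen(IR) library 1 or 3 or UK5099 library 1 or 2, with adjusted p of up to 0.111, and the HIST1H2BO call without Sen(IR) library 1 or 2 or any 1 UK5099 library, with up to 0.176. DESeq2 did not call HIST1H2BO either, with an adjusted p of 0.0634.

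A further 5 members had an adjusted p under 0.05 but a change under the size needed for a call. HIST1H2BD was 0.43 ± 0.10 higher on the log2 scale (adjusted p = 0.00118), from 20.4, 22.6 and 17.2 CPM to 26.9, 29.7 and 24.7 CPM, and it was called, at 0.53, without Sen(IR) library 2. HIST1H2AG, which ends at the stem-loop, was 0.42 ± 0.13 higher (adjusted p = 0.0128), from 7.52, 7.73 and 5.69 CPM to 8.53, 10.5 and 8.95 CPM. In both the groups did not overlap. HIST2H2BE was 0.29 ± 0.06 higher on the log2 scale (adjusted p = 0.000159), from 75.6, 73.2 and 73.8 CPM to 84.8, 92.4 and 95.4 CPM. HIST1H1C was 0.25 ± 0.06 higher (adjusted p = 0.00129), at 80.9, 94.5 and 87.4 CPM with UK5099. HIST1H2BK went the other way, at 75.3, 78.1 and 74.9 CPM with UK5099 (-0.18 ± 0.06, adjusted p = 0.0149), every treated library below the 84.3 CPM of the lowest untreated one. HIST1H4I was at 40.8, 44.8 and 40.3 CPM with UK5099 and did not pass (adjusted p = 0.0683).

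**Figure D5:**
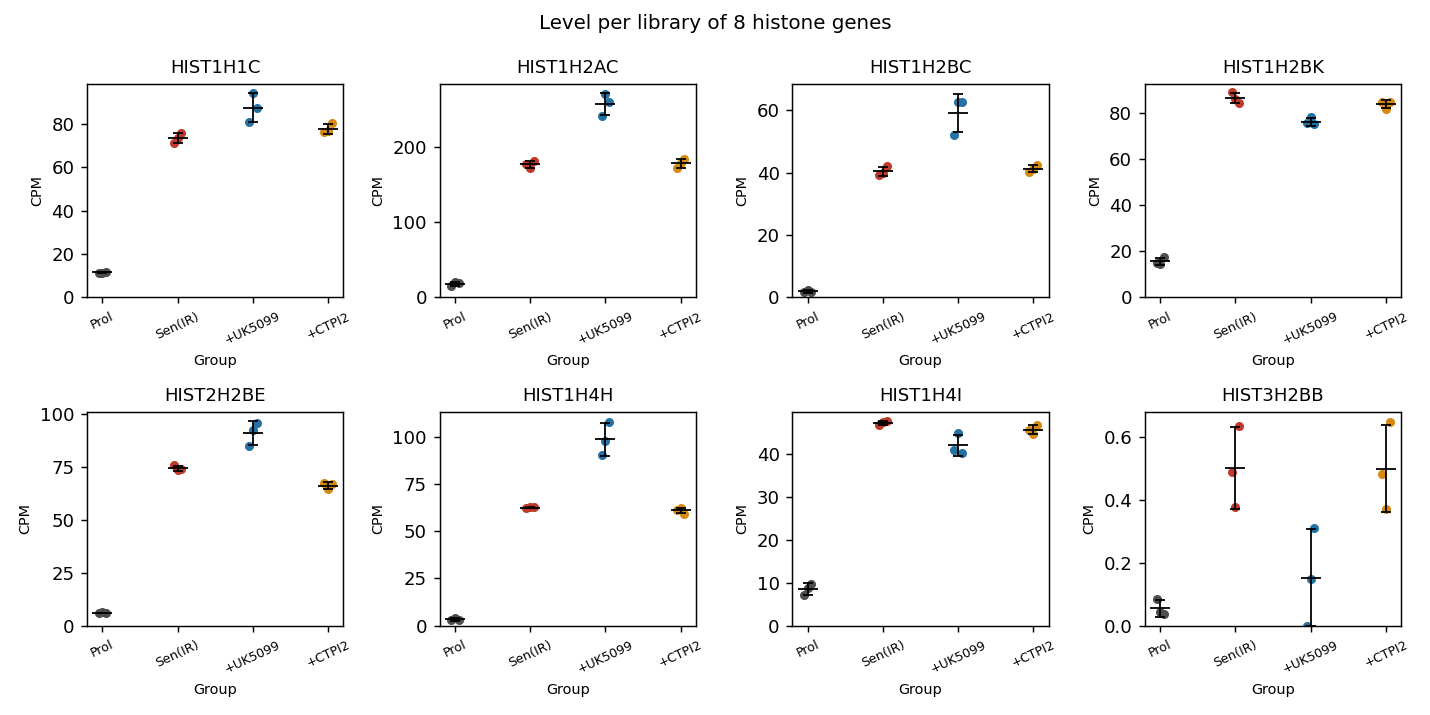
CPM per library of 8 histone genes in the 4 groups, with points for libraries and bars for the mean ± SD of 3 libraries. HIST1H2AC, HIST1H2BC and HIST1H4H sit higher with UK5099 than in Sen(IR), HIST1H2BK sits lower, and HIST3H2BB stays under 1 CPM in all 12 libraries.

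By annotated 3′ end, the 5 members called higher with UK5099 all had an annotation past the stem-loop, 5 of the 15 tested members of that set, beside 0 of 15 tested members that end at it, where 8.76% of all genes were called higher. In each set 1 member was called lower, HIST3H2BB past the stem-loop and HIST1H2BO at it, against 12.1% of all genes. The sum over the 17 genes stood at 412, 410 and 413 CPM in Sen(IR) and at 536, 595 and 594 CPM under UK5099, a ratio of 1.40. The sum over the 49 genes stood at 249, 247 and 244 CPM in Sen(IR) and at 238, 263 and 246 CPM under UK5099, a ratio of 1.01, and the groups overlapped. The difference between the sets was not tested.

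With UK5099, 9 of the 10 S-phase genes were called lower and 0 higher (median -1.48), with RRM2 at -3.59, CDC45 at -2.35 and TYMS at -1.74. Of the machinery genes 2 were called lower, CCNE2 (-1.73) and CDK2 (-0.67), and 0 higher, which is 2 of 25 against the 12.1% of all genes called lower. Of the chaperones 3 were called lower, ASF1B (-3.02), DAXX (-0.66) and IPO4 (-0.65), and 0 higher, which is 3 of 18. Both shares are near that of all genes. Of the variants 4 were called lower, with CENPA at -2.14, H2AFZ at -0.80 and H2AFJ at -0.60, and 1 higher, the linker histone gene H1F0 (1.06), which had fallen by 0.89 in Sen(IR) against Prol.

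The third comparison asked the same of the citrate carrier. With CTPI2 0 members were called by edgeR, against 0.148% of all genes called lower and 0.0185% called higher. At any size of change, 2 had an unadjusted p under 0.05, HIST2H2BE and HIST1H2AG. The share of all genes at that unadjusted limit was not counted, so no more is read from these 2. DESeq2 called 0 as well. The smallest adjusted p was 0.368, that of HIST2H2BE, at 75.6, 73.2 and 73.8 CPM in Sen(IR) and 67.1, 64.3 and 66.9 CPM with CTPI2 (-0.17 ± 0.06). The log2 fold changes ran from -1.11 to 0.66, the extremes being low genes, with a median of -0.0030 beside 0.0032 over all genes tested.

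The class sums with CTPI2 were close to those of Sen(IR). Their ratios were 1.06 for H1, 1.02 for H2A, 0.95 for H2B, 0.97 for H3 and 0.97 for H4, and 0.99 over all members. The HIST2 sum was 84.1, 79.5 and 79.7 CPM in Sen(IR) and 74.8, 70.4 and 75.6 CPM with CTPI2, without overlap, and HIST2H2BE made up most of it. No gene of the machinery, chaperone, variant or S-phase lists was called with CTPI2 in either direction. A difference that misses the threshold does not show that the values were alike.

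The fourth comparison set the inhibitors side by side, at doses that differ or are not known. In Sen(IR)+UK5099 against Sen(IR)+CTPI2 7 members were called higher, against 8.2% of all genes, and 1 lower, against 11.7%. The 5 genes called higher with UK5099 against Sen(IR) were among them, with HIST1H4H at 0.69 ± 0.07 (adjusted p = 2.62e-08), HIST1H2AC at 0.53 ± 0.07, HIST1H2BC at 0.52 ± 0.08, HIST1H2BN at 0.83 ± 0.12 and HIST1H2BE at 1.37 ± 0.26 on the log2 scale. HIST1H2BD, at 26.9, 29.7 and 24.7 CPM with UK5099 and 18.2, 18.6 and 19.3 CPM with CTPI2, was 0.54 ± 0.10 higher (adjusted p = 0.000140). HIST1H2BH, at 3.73, 3.19 and 4.11 CPM with UK5099 and 2.15, 1.65 and 2.86 CPM with CTPI2, was 0.73 ± 0.20 higher (adjusted p = 0.00479). Neither pair of groups overlapped.

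HIST3H2BB was the 1 called lower, with 0, 4 and 8 counts against 11, 9 and 15 (-1.65 ± 0.59, adjusted p = 0.0278), a call lost without UK5099 library 1 or 2 or CTPI2 library 1 or 3. Without UK5099 library 2 the number called higher was 4, because HIST1H2AC, HIST1H2BC and HIST1H2BD then fell under the size needed. HIST1H2BC also did so without UK5099 library 3 or CTPI2 library 1. The 2 comparisons with UK5099 share its 3 libraries, so the same genes being called in both is no independent support.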

How the data were processed

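RNA of 12 MRC5 libraries in 4 groups of 3 was sequenced as paired reads of 150 bases by a service provider. Per the labels and the study's methods, the authors removed adapters with Trimmomatic 0.36, used STAR 2.5.2b for alignment to GRCh38, and had featureCounts (Subread 1.5.2) count unique reads in exons per gene. The deposited values are raw counts. Annotation release, library selection and strand setting are not given in the sources used here.

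Members were the 76 names fitting the HIST pattern; members and gene lists were chosen with earlier results of these data known. Counts of all 4 groups were fitted together in edgeR 4.0.16 (R 4.3.3; TMM, filterByExpr at a minimum count of 10, quasi-likelihood F-test), leaving 16251 of 57500 genes, with 99.9% of counts, and a coefficient of variation between replicates of 6.12%. The fit was tested on simulated data. A call needed an adjusted p (Benjamini-Hochberg over all genes) under 0.05 and an absolute log2 fold change over 0.5. Named are the 3 highest tested members of each class, the 3 largest called changes each way, tested HIST2, HIST3 and HIST4 members, those with over 1000 exon bases or over 1 exon, and those called in a direction shared by at most 5; of the lists, the 3 largest called changes. Alternatives were RLE and upper-quartile scaling, no filter, DESeq2 1.42.0, only the compared groups, a replicate block, other thresholds and leaving out each library. Annotation came from GENCODE v44, promoters from RefSeq (GRCh38.p14; the first listed per gene).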

Additional observations from a re-analysis of the deposited data

How the results depend on the processing

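Under the alternatives the numbers of members called stayed within 1.5 times those given, with these exceptions. Without a filter on low counts, 3 members were called lower in Sen(IR) against Prol and 1 with UK5099 against Sen(IR), and DESeq2 also called 1 lower in the latter. A minimum absolute log2 fold change of 1 left 1 member called higher with UK5099 against Sen(IR) and 1 against CTPI2. Leaving out 1 library at a time gave 27 to 30 higher and 0 to 1 lower in Sen(IR) against Prol, 5 to 6 higher and 0 to 1 lower for UK5099 against Sen(IR), 4 to 8 higher and 0 to 1 lower for UK5099 against CTPI2, and 0 in both directions for CTPI2 against Sen(IR), as did every other alternative for CTPI2. HIST2H2BB, not called, ranged from -0.60 to 0.093 on the log2 scale in Sen(IR) against Prol when single libraries were left out (0.039 without Prol library 2). Upper-quartile scaling moved the median of all genes in Sen(IR) against Prol from 0.01 to 0.14, and the log2 ratios of the H1 and H2B sums from 2.64 to 2.76 and from 2.90 to 3.02, with no other class or cluster sum moved beyond its spread. Of 648 alternative values of 54 named fold changes, 609 kept direction and call, 35 lost the call and 2 gained one.

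No shared deviation of same-numbered libraries was seen. The 18 same-numbered pairs correlated at -0.05 to 0.04 in their deviations from the group means, and other pairs at -0.06 to 0.10. With 3 libraries per group this cannot exclude that the libraries were paired. A replicate block gave 30 higher and 1 lower in Sen(IR) against Prol, 5 and 2 for UK5099 against Sen(IR), 7 and 1 for UK5099 against CTPI2, and 0 and 0 for CTPI2 against Sen(IR). At this depth, members under about 20 counts a library could not be ranked or tested with confidence.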
